A study of Mus musculus with 15 samples.

Results

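The genes described here are 38 mouse genes of glycolysis and of the response to low oxygen, chosen by name. A probe set was found for 36 of them among the 25206 probe sets of the arrays, through the Entrez Gene ID that names each probe set. Gapdh and Eno1 had no probe set matched by that rule and were not analysed here. By role, 3 measured members transport glucose or lactate, 15 are glycolytic enzymes, 3 regulate flux through the pathway, 4 belong to oxygen sensing and 11 are other targets of the hypoxia response.

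The values come from 15 samples in 5 groups of 3, profiled as total RNA on Affymetrix Mouse Gene 2.0 ST arrays. The cultured samples are from 1 mouse induced pluripotent stem cell (iPSC) line carrying Acta2hrGFP, a reporter that makes a green fluorescent protein under control of the smooth muscle actin gene Acta2. They are undifferentiated iPSC at day 0, Kdr+ (Flk-1+) mesodermal progenitors sorted at day 5, and cells of the smooth muscle differentiation sorted at day 13 as GFP+ or GFP-. The last group is GFP+ smooth muscle cells taken from the mouse aorta with the same reporter. The labels give neither the oxygen level or medium of the cultures nor the strain or age of the mice. The cultured samples carry the replicate numbers 3, 5 and 6 and the aortic samples 1, 2 and 3, and the design calls them biological triplicates without saying more on how separate the cultures were. The p-values therefore rest on the spread between these triplicates.

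Every value below is a log2 level from the authors' normalized table, so a difference of 1 is a 2-fold change, and levels of different probe sets are not set against each other. Within groups, samples correlated across all probe sets at r from 0.977 to 0.995 (genes are not independent replicates), and the sample medians lay between 4.08 and 4.29. Acta2 stood at 11.23, 11.47 and 11.27 in day 13 GFP+ cells and at 10.16, 11 and 10.85 in GFP- cells, so the sort separated the samples narrowly at the RNA level. Kdr stood at 9.69, 9.59 and 9.65 in day 5 cells and at 3.25, 3.28 and 3.18 in iPSC, with no Kdr- group beside it. Lists of marker genes moved with the groups: in day 5 cells against iPSC, 9 of 10 pluripotency, 6 of 8 epithelial and 5 of 7 leukocyte markers passed the test as lower and 9 of 9 early mesoderm markers as higher. In bulk samples, fewer cells of a type and less RNA per cell cannot be told apart.

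In glycolysis, glucose enters through facilitative transporters, is phosphorylated and split, and leaves as pyruvate, which is reduced to lactate or passed to the mitochondria. The hypoxia-inducible factors HIF-1α (gene Hif1a) and HIF-2α (gene Epas1) are hydroxylated by prolyl hydroxylases when oxygen is present and then degraded, so they are regulated largely as proteins. When stable they pair with ARNT and bind DNA at sites that hold the core letters ACGTG or GCGTG, near genes that include many of those named here. Pluripotent cells and fast-growing cells are known for high glycolytic rates, and smooth muscle of the artery wall for making much of its lactate even when oxygen is present.

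The promoters of the 5 members that lay furthest below iPSC at day 5 are shown. They were chosen for the size of that fall, so that they fell together there is no separate result. Each is the RefSeq promoter of the gene on build GRCm38.p6, 250 bases before to 50 bases after the annotated start, read along the gene from 5′ to 3′, and capitals mark each ACGTG or GCGTG on either strand (CACGT or CACGC where the match is on the other strand).
Pfkp, chr13:6648722-6649021, minus strand: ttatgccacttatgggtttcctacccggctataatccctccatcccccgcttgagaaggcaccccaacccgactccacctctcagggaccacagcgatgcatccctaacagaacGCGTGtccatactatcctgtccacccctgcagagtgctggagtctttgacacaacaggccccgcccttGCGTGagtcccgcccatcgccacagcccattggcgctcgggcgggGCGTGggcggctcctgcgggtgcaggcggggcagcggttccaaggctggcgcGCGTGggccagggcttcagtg
Bnip3, chr7:138909457-138909756, minus strand: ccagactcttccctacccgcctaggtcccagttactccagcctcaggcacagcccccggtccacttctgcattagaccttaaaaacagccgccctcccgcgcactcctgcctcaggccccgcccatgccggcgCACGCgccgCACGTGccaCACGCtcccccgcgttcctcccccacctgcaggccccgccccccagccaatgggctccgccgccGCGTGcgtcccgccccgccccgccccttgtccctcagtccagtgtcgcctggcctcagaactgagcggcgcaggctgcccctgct
Pdk1, chr2:71872974-71873273, plus strand: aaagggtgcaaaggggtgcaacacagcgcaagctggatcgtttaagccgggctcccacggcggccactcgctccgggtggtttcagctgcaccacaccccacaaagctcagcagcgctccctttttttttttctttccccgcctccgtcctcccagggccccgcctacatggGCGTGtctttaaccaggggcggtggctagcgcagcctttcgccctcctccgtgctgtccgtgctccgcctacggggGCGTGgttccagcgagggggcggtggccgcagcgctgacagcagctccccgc
Ddit4, chr10:59951721-59952020, minus strand: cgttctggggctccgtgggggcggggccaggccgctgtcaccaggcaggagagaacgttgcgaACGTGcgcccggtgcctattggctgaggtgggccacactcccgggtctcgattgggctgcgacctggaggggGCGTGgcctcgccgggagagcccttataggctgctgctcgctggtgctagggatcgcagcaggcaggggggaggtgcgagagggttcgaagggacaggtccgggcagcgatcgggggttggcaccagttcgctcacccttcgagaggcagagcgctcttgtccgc
Eno2, chr6:124769624-124769923, minus strand: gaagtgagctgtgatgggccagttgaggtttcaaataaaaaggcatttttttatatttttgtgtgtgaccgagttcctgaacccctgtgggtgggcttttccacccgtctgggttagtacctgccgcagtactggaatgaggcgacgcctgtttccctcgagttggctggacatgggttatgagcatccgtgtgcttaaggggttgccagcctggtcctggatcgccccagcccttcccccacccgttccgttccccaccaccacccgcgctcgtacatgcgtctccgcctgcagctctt

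Pdk1 has a pair of annotated starts, and the window at the first is shown, while that at the other, chr2:71874654-71874953, held 0 matches. The Pfkp window held 4 matches, that of Bnip3 5, the Pdk1 window shown and that of Ddit4 2 each, and that of Eno2 0. In the Bnip3 window 2 of the matches are the 2 strands of 1 CACGTG, the palindrome that other factors of the same protein family also bind. Of the 33 measured members with a RefSeq promoter, 29 (87.9%) held at least 1 match in a window, against 12628 of 27025 genes with a record (46.7%). Counted by window, 36 of 48 windows of the members (75%) held one, against 14380 of 32851 windows of all genes (43.8%). The share depends on the base composition of promoters, a match is no measured binding, and the absence of a match says only that these letters are not in the 300 bases shown. The members were chosen as glycolysis and hypoxia genes, so a share above that of all genes is no independent result. Matches were not confined to members that passed as lower at day 5. The P4ha2 window held 4 and that of Hif1a, which rose there, 3.

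The difference between the highest and lowest group mean had a median of 2.35 for the members and 0.74 for all probe sets. The group with the highest mean was day 0 iPSC for 19 members, day 5 for 0, day 13 GFP- for 2, day 13 GFP+ for 11 and the aorta for 4. The group with the lowest mean was day 0 for 3 members, day 5 for 15, GFP- for 2, GFP+ for 0 and the aorta for 16. Of all probe sets, 22.5% were highest at day 0, 19% at day 5, 7.86% in GFP-, 13% in GFP+ and 37.7% in the aorta. The shares of all probe sets with their lowest mean were 22.2% at day 0, 20% at day 5, 17.8% in GFP-, 15.3% in GFP+ and 24.7% in the aorta.

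**Figure D1:**
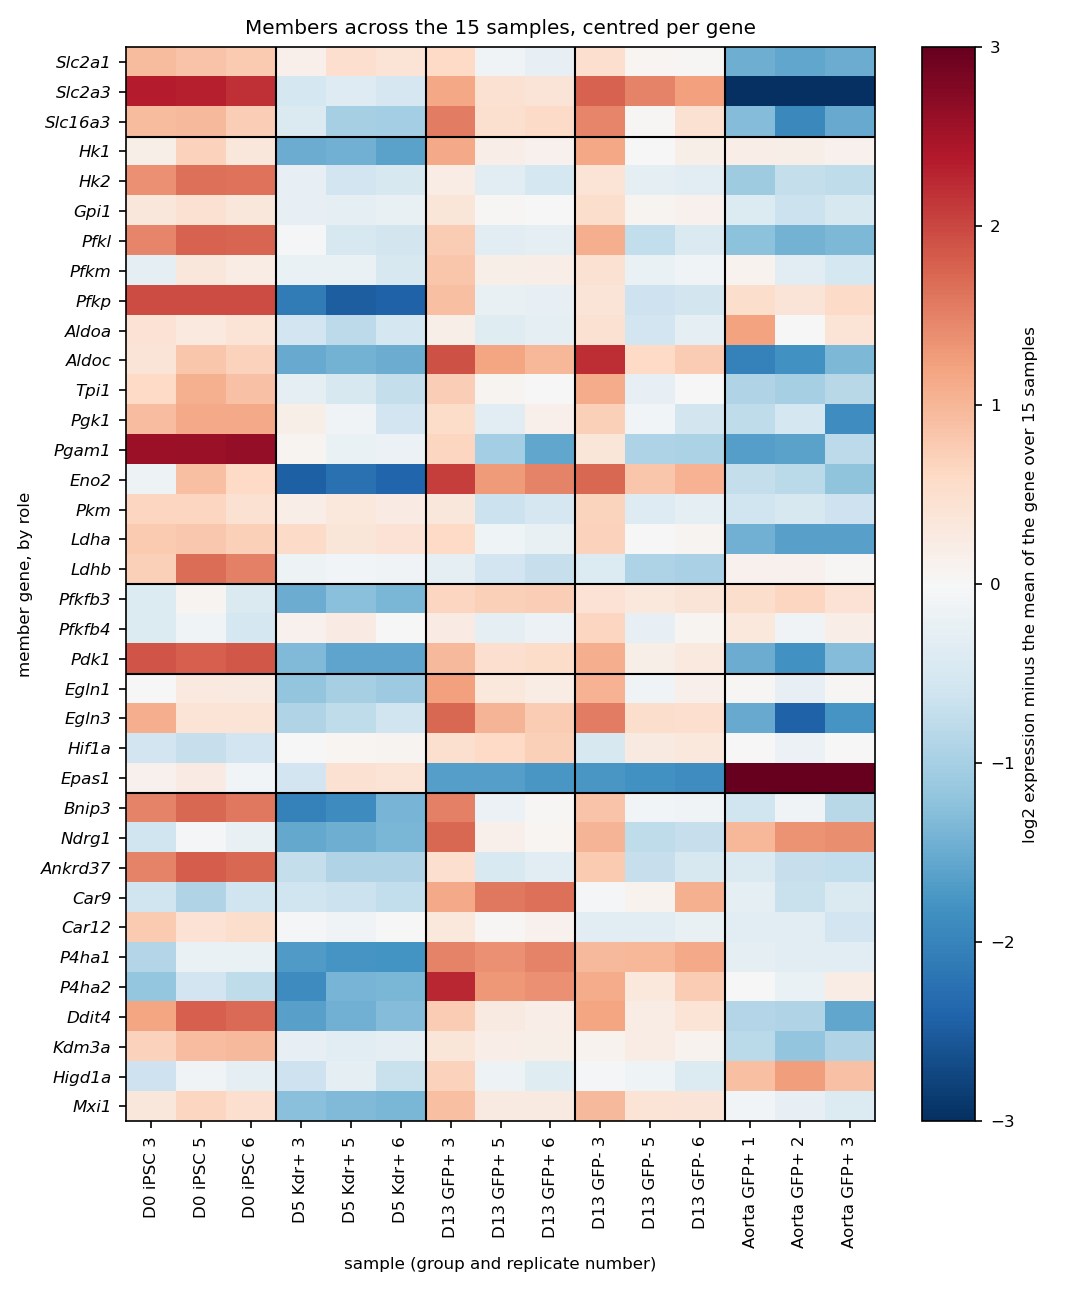
Each row is 1 of the 36 measured members, ordered by role with lines between roles, and each column is 1 sample, in groups separated by lines. Colour gives the log2 level minus the gene's mean over the 15 samples, red above and blue below, and the scale stops at 3 in either direction. Most rows are red at day 0, blue at day 5, red again in the day 13 samples numbered 3 and blue in the aorta, with Epas1 as the clearest exception.

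The first comparison set day 5 Kdr+ cells against day 0 iPSC and follows the genes from the pluripotent state into mesoderm. Transcripts of the glucose transporter Slc2a3, of most of the glycolytic enzymes and of many hypoxia targets were lower in the day 5 cells. Of 36 members, 25 passed the test as lower, 1 as higher and 10 did not pass (limma, adjusted p under 0.05 over all probe sets). Over all probe sets 13.9% passed as lower and 14.9% as higher, and among the probe sets above the median level 18.8% and 26.6%. The median log2 change of the members was -1.31, against -0.01 for all probe sets, and 23 members were at least 2-fold lower.

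Among the transporters, the high-affinity glucose transporter Slc2a3 (GLUT3) stood at 8.12, 8.25 and 8.13 in day 5 cells and at 11.01, 10.97 and 10.83 in iPSC. The groups lay far apart, 6.82-fold on average (log2 change -2.77, SE 0.195, adjusted p = 2.4e-08). The lactate exporter Slc16a3 (MCT4) also fell, by 1.71 on the log2 scale (adjusted p = 0.000757). The widely expressed transporter Slc2a1 (GLUT1) had 10.23, 10.57 and 10.47 in day 5 cells against 11.03, 10.92 and 10.86 in iPSC and missed the threshold (log2 change -0.51, adjusted p = 0.0548).

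Of the 15 measured enzymes, 12 fell. Phosphofructokinase, the committed step of glycolysis, has 3 genes, and they differed. Pfkp, the platelet-type subunit, stood at 5.85, 5.48 and 5.52 in day 5 cells and at 9.92, 9.91 and 9.91 in iPSC. That is the lowest log2 change of the members, -4.29 (SE 0.28, 19.6-fold, adjusted p = 1.09e-08), and no day 5 sample came within 4 of an iPSC sample. The liver-type Pfkl fell by 2.01 (SE 0.367, adjusted p = 0.000504), while the muscle-type Pfkm changed by -0.4 (95% interval -0.89 to 0.09, adjusted p = 0.238). Eno2, the neuron-type enolase, stood at 4.3, 4.51 and 4.36 in day 5 cells and at 6.59, 7.64 and 7.33 in iPSC (log2 change -2.8, SE 0.276, adjusted p = 1.05e-06). The hexokinases Hk1 and Hk2, which trap glucose in the cell, fell by 1.91 and 1.99, and the aldolase Aldoc by 2.11. Pgam1, a phosphoglycerate mutase, had 5.68, 5.39 and 5.41 in day 5 cells and 8.16, 8.19 and 8.22 in iPSC, a log2 change of -2.7 (SE 0.445). The remaining falls were Ldhb (the lactate dehydrogenase subunit of aerobic tissues, -1.42), Tpi1 (triose phosphate isomerase, -1.33), Pgk1 (phosphoglycerate kinase, -1.23), Aldoa (the aldolase of muscle and most cells, -1.01) and Gpi1 (glucose phosphate isomerase, -0.62). Without day 5 sample 6 the Pgk1 call was lost (log2 change -1.03, adjusted p = 0.0688). The enzymes of the last steps that did not pass were Pkm (pyruvate kinase, -0.33, interval -0.88 to 0.22) and Ldha (the lactate-forming dehydrogenase subunit, -0.31, interval -0.74 to 0.12).

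Several glycolytic genes have near-identical processed copies in the mouse genome, among them Aldoa, Pgk1, Tpi1, Pgam1, Pkm and Ldha, and their probe sets may read more than 1 locus. Whether a probe set is detected is not stated in the table, and the sample medians over all probe sets lie near 4. Where a group's values lie not far above that, as for Aldoa and Pgk1, for Eno2 at day 5, for Epas1 at day 13 and for Slc2a3 in the aorta, a background signal may make up part of them, and the fold changes given may understate the change. The same holds for Car12 and Pfkfb4 in all groups, for Higd1a in the cultured groups and for Ankrd37 at day 5. It holds too for Pgam1 and Ankrd37 in the aorta and in the day 13 samples numbered 5 and 6. Car9 lay near or below that level in iPSC, day 5 and aortic cells and in GFP- samples 3 and 5.

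Of the flux regulators, Pdk1 encodes a kinase that inhibits pyruvate dehydrogenase and so limits the oxidation of pyruvate in the mitochondria. Pdk1 stood at 5.52, 5.25 and 5.25 in day 5 cells and at 8.73, 8.63 and 8.7 in iPSC (log2 change -3.35, SE 0.212, 10.2-fold, adjusted p = 8.05e-09). Pfkfb3, which makes the activator of phosphofructokinase, fell by 1.11 (adjusted p = 9.88e-06). Pfkfb4, a second enzyme of that kind, lay higher in the day 5 cells without passing (0.48, adjusted p = 0.101).

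Hif1a was the only member that rose. It stood at 8.34, 8.39 and 8.41 in day 5 cells and at 7.75, 7.64 and 7.77 in iPSC, a log2 change of 0.66 (SE 0.169, adjusted p = 0.00683). The prolyl hydroxylases Egln1 and Egln3, which mark HIF for degradation and are themselves hypoxia targets, fell by 1.28 and 1.38. Epas1 had 5.64, 6.68 and 6.62 in day 5 cells and 6.33, 6.47 and 6.12 in iPSC, with the low day 5 value in sample 3, and its change of 0 (interval -0.44 to 0.45) did not pass.

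Of the 11 other targets 7 fell. Bnip3, a mitophagy receptor, stood at 4.74, 4.87 and 5.36 in day 5 cells and at 8.26, 8.48 and 8.34 in iPSC (log2 change -3.37, SE 0.363, adjusted p = 2.72e-06). Ddit4 (REDD1), an inhibitor of mTORC1, stood at 4.79, 4.96 and 5.11 in day 5 cells and at 7.6, 8.2 and 8.11 in iPSC (log2 change -3.02, SE 0.254, adjusted p = 1.8e-07). Ankrd37, an ankyrin repeat protein used as a HIF-1 target gene, fell by 2.52, Mxi1, a MYC antagonist, by 1.81, and the collagen prolyl hydroxylase subunit P4ha1 by 1.34. Kdm3a, a histone H3 lysine demethylase, fell by 1.16 and the carbonic anhydrase Car12 by 0.63. Values that did not pass were -1.17 for Ndrg1, a stress-responsive gene (adjusted p = 0.0542), -0.71 for P4ha2, the second collagen hydroxylase subunit (0.052), 0.05 for the carbonic anhydrase Car9 and -0.19 for the mitochondrial protein Higd1a.

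**Figure D2:**
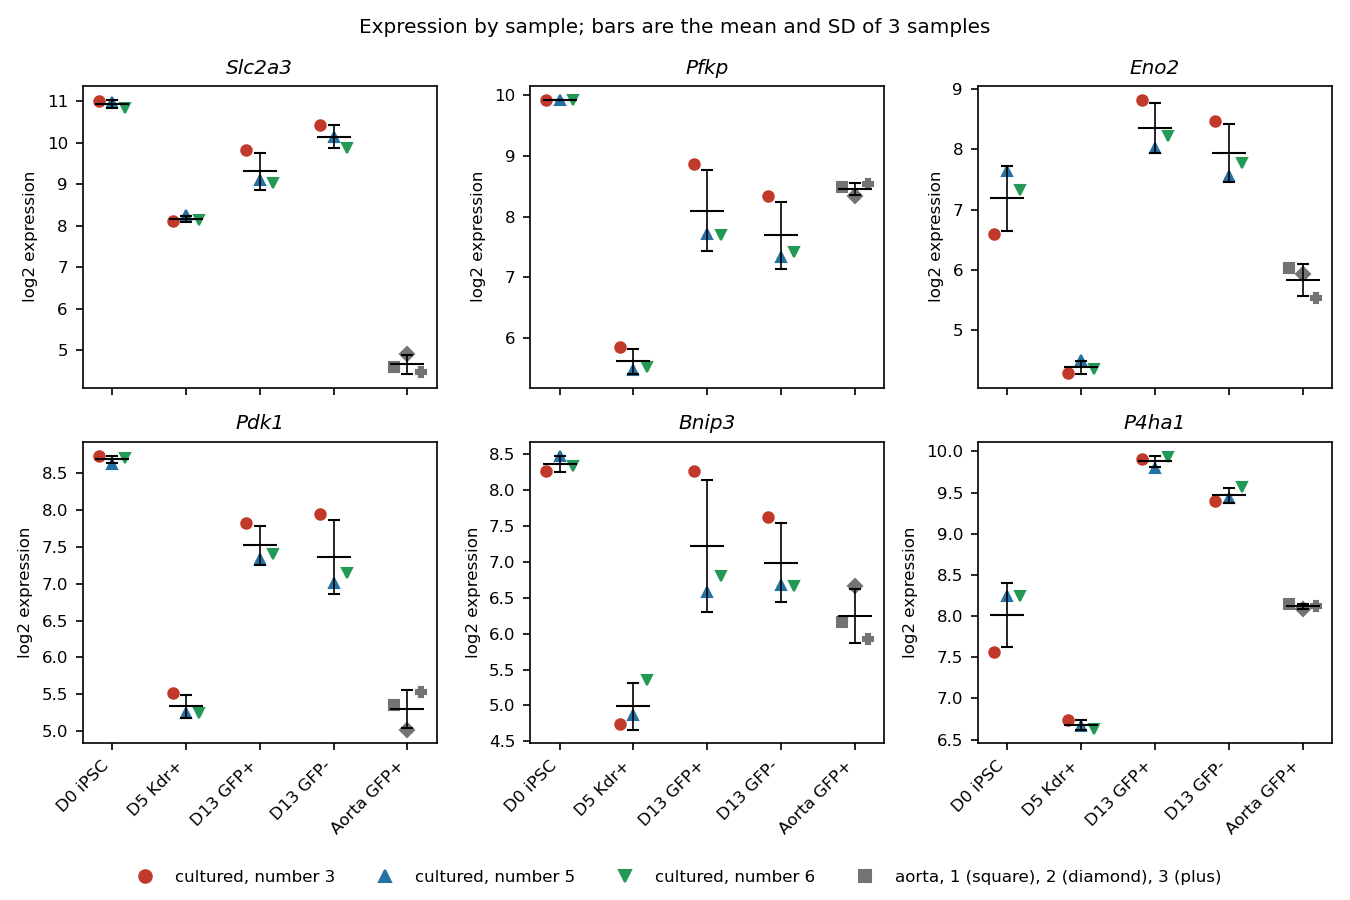
Log2 expression of 6 members in each sample, with groups along the horizontal axis in order of stage and the aorta last. Points are samples (colour and shape give the replicate number) and bars give the mean and SD of the 3 samples. Slc2a3, Pfkp, Eno2, Pdk1, Bnip3 and P4ha1 are lower in every day 5 sample than in every iPSC and day 13 sample, and the red points of the samples numbered 3 stand above the others at day 13 in all panels but P4ha1.

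Related genes that are no members, taken from lists chosen with earlier results of these data known, gave the following counts at day 5. Of 29 other hypoxia-responsive genes, 15 fell and 3 rose. The falls were led by Bhlhe40 (a transcriptional repressor, -2.87) and Kdm4c (a histone demethylase, -2.54), while Vldlr, a lipoprotein receptor, rose by 3.55. Vegfa, the angiogenic growth factor, is named for its role after its values were seen and fell by 2.35. Of 29 other glycolysis isoforms and branch enzymes, 8 fell and 3 rose. Of 13 regulators of HIF, 5 rose, led by Cited2 (a competitor of HIF for its coactivator, 1.67), and 3 fell. Of 11 measured genes of pyruvate entry into mitochondria, 5 fell and 3 rose, with Pdk4 at -1.52 and Pdha1 at -1.16.

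Each day 13 sort was then compared with day 5 Kdr+ cells. The 2 comparisons share their day 5 samples, so their values are given side by side and are not independent of each other. Many members that were low at day 5, among them Eno2, Pdk1, Bnip3 and P4ha1, were higher in both sorts, while the transcripts of several central enzymes did not pass. In GFP- cells 19 members passed as higher, 2 as lower and 15 did not pass, with a median log2 change of 0.74 against -0.03 for all probe sets. In GFP+ cells 21 passed as higher, 1 as lower and 14 did not pass, with a median of 0.76 against 0. Over all probe sets 12% passed as higher and 13.9% as lower in GFP- cells, and 14.3% and 16.9% in GFP+ cells. Among the probe sets above the median level the shares were 20.6% and 24.5% in GFP- cells and 23.7% and 30.2% in GFP+ cells.

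Slc2a3 stood at 10.42, 10.13 and 9.88 in GFP- cells and at 9.81, 9.09 and 9.02 in GFP+ cells, against 8.12, 8.25 and 8.13 at day 5. The log2 changes were 1.98 (SE 0.195) and 1.14 (SE 0.195), and every day 13 sample lay above every day 5 sample. Slc16a3 rose by 1.47 in GFP- cells and by 1.68 in GFP+ cells. Slc2a1 did not pass in either, with changes of -0.15 and -0.27.

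Among the enzymes 5 rose in GFP- cells and 6 in GFP+ cells of 15. Eno2 stood at 8.47, 7.56 and 7.77 in GFP- cells and at 8.82, 8.02 and 8.22 in GFP+ cells, against 4.3, 4.51 and 4.36 at day 5. Its log2 changes were 3.55 (SE 0.276, 11.7-fold, adjusted p = 1.43e-07) and 3.97 (SE 0.276, 15.6-fold, adjusted p = 2.09e-08), the highest of the members in both sorts. Aldoc had 8.95, 7.34 and 7.5 in GFP- cells and 8.66, 7.93 and 7.73 in GFP+ cells, against 5.23, 5.32 and 5.26 at day 5 (log2 changes 2.66 and 2.83, SE 0.337 each). Pfkp had 8.33, 7.34 and 7.41 in GFP- cells and 8.86, 7.72 and 7.7 in GFP+ cells, against 5.85, 5.48 and 5.52 at day 5 (2.08 and 2.48, SE 0.28 each). Hk1 rose by 1.96 in GFP- cells and 2 in GFP+ cells, and Gpi1 by 0.5 in GFP- cells and 0.38 in GFP+ cells. Pfkm rose in GFP+ cells by 0.71 (adjusted p = 0.0262) and had 0.35 in GFP- cells (adjusted p = 0.341). Ldhb was lower in GFP- cells (-0.65, adjusted p = 0.0333) and had -0.4 in GFP+ cells (adjusted p = 0.206). Hk2, Pfkl, Aldoa, Tpi1, Pgk1, Pgam1, Pkm and Ldha did not pass in either sort, with changes from -0.55 to 0.78.

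In those enzymes the 2 day 13 samples numbered 3 lay apart from the others. Without both of them, 5 members passed as lower in each sort. The share of all probe sets that passed without them is not given here, so this count has no background beside it. Pkm fell by 0.59 in GFP- cells and by 0.83 in GFP+ cells, Pgam1 by 0.84 in GFP- cells and 1.2 in GFP+ cells, and Ldha by 0.41 in GFP- cells and 0.63 in GFP+ cells. Slc2a1 fell by 0.52 in GFP+ cells. The increases of Gpi1 and Pfkm in GFP+ cells no longer passed (0.26 and 0.49), whereas those of Tpi1 (0.53) and Ankrd37 (0.46) did.

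Other calls among the day 13 enzymes and targets rested on single samples or on the scaling. The increase of Gpi1 was lost in GFP- cells without GFP- sample 3 (adjusted p = 0.0575), and in GFP+ cells without GFP+ sample 3 (0.221) or 5 (0.0555) or any single day 5 sample (0.0891 to 0.124). That of Pfkm in GFP+ cells was lost without GFP+ sample 3 (0.141) or day 5 sample 6 (0.103). The fall of Ldhb in GFP- cells was lost without GFP- sample 5 (0.118) or 6 (0.133) or any single day 5 sample (0.072 to 0.0884), and the rise of Kdm3a there without GFP- sample 5 (0.0532) or day 5 sample 5 (0.0512). After median centring Gpi1 (0.0578) and Kdm3a (0.0694) did not pass in GFP- cells, nor Gpi1 (0.191), Pfkm (0.0667) and Hif1a (0.0534) in GFP+ cells.

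The flux regulators Pfkfb3 and Pdk1 rose in both sorts, Pfkfb3 by 1.76 in GFP- cells and 2.07 in GFP+ cells and Pdk1 by 2.02 and 2.18, while Pfkfb4 did not pass (0.03 and -0.21). Pdk1 stood at 7.94, 7.01 and 7.14 in GFP- cells and at 7.82, 7.34 and 7.4 in GFP+ cells, against 5.52, 5.25 and 5.25 at day 5. Egln1 rose by 1.45 in GFP- cells and 1.68 in GFP+ cells, and Egln3 by 1.61 and 1.92.

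Of the HIF alpha genes, Epas1 was lower in both sorts, and Hif1a passed as higher in GFP+ cells and did not pass in GFP- cells. Hif1a stood at 7.86, 8.6 and 8.65 in GFP- cells, with the low value in sample 3, and at 8.82, 8.92 and 9.04 in GFP+ cells, against 8.34, 8.39 and 8.41 at day 5. Its log2 change was -0.01 in GFP- cells (interval -0.37 to 0.35) and 0.55 in GFP+ cells (SE 0.169, adjusted p = 0.0201). The second call was lost without GFP+ sample 6 (adjusted p = 0.0791) and without day 5 sample 3 (0.062) or 5 (0.052). Epas1 had the lowest change of the members in both sorts. It stood at 4.47, 4.39 and 4.35 in GFP- cells and at 4.57, 4.55 and 4.47 in GFP+ cells, against 5.64, 6.68 and 6.62 at day 5 (log2 changes -1.91 and -1.78, SE 0.211 each, adjusted p = 4.9e-06 and 5.94e-06).

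**Figure D3:**
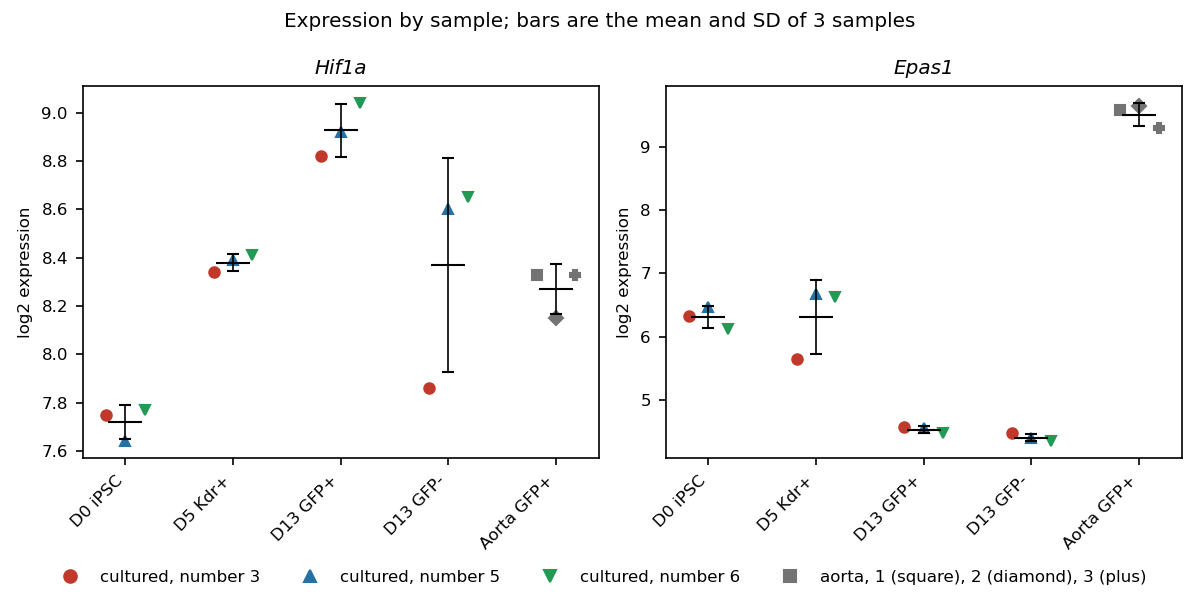
Log2 expression of Hif1a and Epas1, which encode the alpha subunits of the hypoxia-inducible factors, in each sample, with points by replicate number and bars for the mean and SD of 3 samples. Hif1a is lowest in the 3 iPSC samples and highest in day 13 GFP+ cells. Epas1 lies between 4.35 and 4.57 in all 6 day 13 samples and between 9.3 and 9.65 in the aortic samples.

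Of the other targets, 8 of 11 rose in each sort. P4ha1 stood at 9.4, 9.43 and 9.57 in GFP- cells and at 9.91, 9.8 and 9.93 in GFP+ cells, against 6.74, 6.66 and 6.63 at day 5 (log2 changes 2.79 and 3.2, SE 0.153 each). P4ha2 had 7.81, 7.02 and 7.46 in GFP- cells and 8.97, 7.99 and 8.08 in GFP+ cells, against 4.82, 5.3 and 5.33 at day 5 (2.28 and 3.2, SE 0.259 each). These 2 subunits hydroxylate collagen. Of the fibroblast and tendon markers, which include the collagen genes Col1a1, Col1a2 and Col3a1, 7 of 10 rose in GFP- cells and 9 of 10 in GFP+ cells. A link of these markers to P4ha1 and P4ha2 was not tested. Bnip3 rose by 2 in GFP- cells and 2.23 in GFP+ cells, Ddit4 by 2.06 and 1.87, Mxi1 by 1.9 and 1.8, and Kdm3a by 0.44 and 0.54. Ndrg1 rose by 1.31 (adjusted p = 0.0335) and 2.11 (adjusted p = 0.00106). The call for Ndrg1 in GFP- cells was lost without GFP- sample 3 (log2 change 0.73, adjusted p = 0.167) and without any single day 5 sample (0.0704 to 0.0899). Car9, a marker gene of hypoxia, rose by 1.03 and 2.11. Ankrd37, Car12 and Higd1a did not pass, with changes from -0.24 to 0.76.

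Other marker lists moved with day 13 as well. Of the proliferation markers 12 of 12 and of the early mesoderm markers 9 of 9 were lower in both sorts. Contractile smooth muscle markers were higher in 7 of 10 in GFP- cells and 10 of 10 in GFP+ cells, and cardiac markers in 5 of 8 in GFP- cells and 4 of 8 in GFP+ cells. In GFP- cells 8 of 10 endoderm, 7 of 9 endothelial and 5 of 8 epithelial markers were higher, and in GFP+ cells 1 of each of these lists, where 3 of 8 epithelial markers were lower. The mean proliferation marker level was 7.42 to 7.58 in GFP- cells and 6.66 to 7.02 in GFP+ cells, against 8.92 to 8.93 at day 5. The part of these lists in the members' changes was not tested.

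Of the 29 other hypoxia-responsive genes, 13 rose and 1 fell in GFP- cells, and 13 rose and 2 fell in GFP+ cells. They included Vegfa (3.32 and 3.39), the lysyl oxidase Loxl2 (3.6 and 4.09) and the collagen hydroxylase subunit P4ha3 (3.44 and 4.46). The transferrin receptor Tfrc fell by 1.82 and 2.83. Of the 29 other glycolysis genes, 6 rose and 5 fell in GFP- cells, and 5 rose and 9 fell in GFP+ cells, led by Pgm1 (phosphoglucomutase, 1.94 and 1.91). Of 11 genes of pyruvate entry, 3 rose and 3 fell in GFP- cells, and 3 rose and 6 fell in GFP+ cells, with Pdk4 at 2.87 and 1.79. Of 13 HIF regulators, 3 rose and 3 fell in GFP- cells, and 3 rose and 4 fell in GFP+ cells, led by Hif3a, a further HIF alpha gene (1.63 and 2.1).

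**Figure D4:**
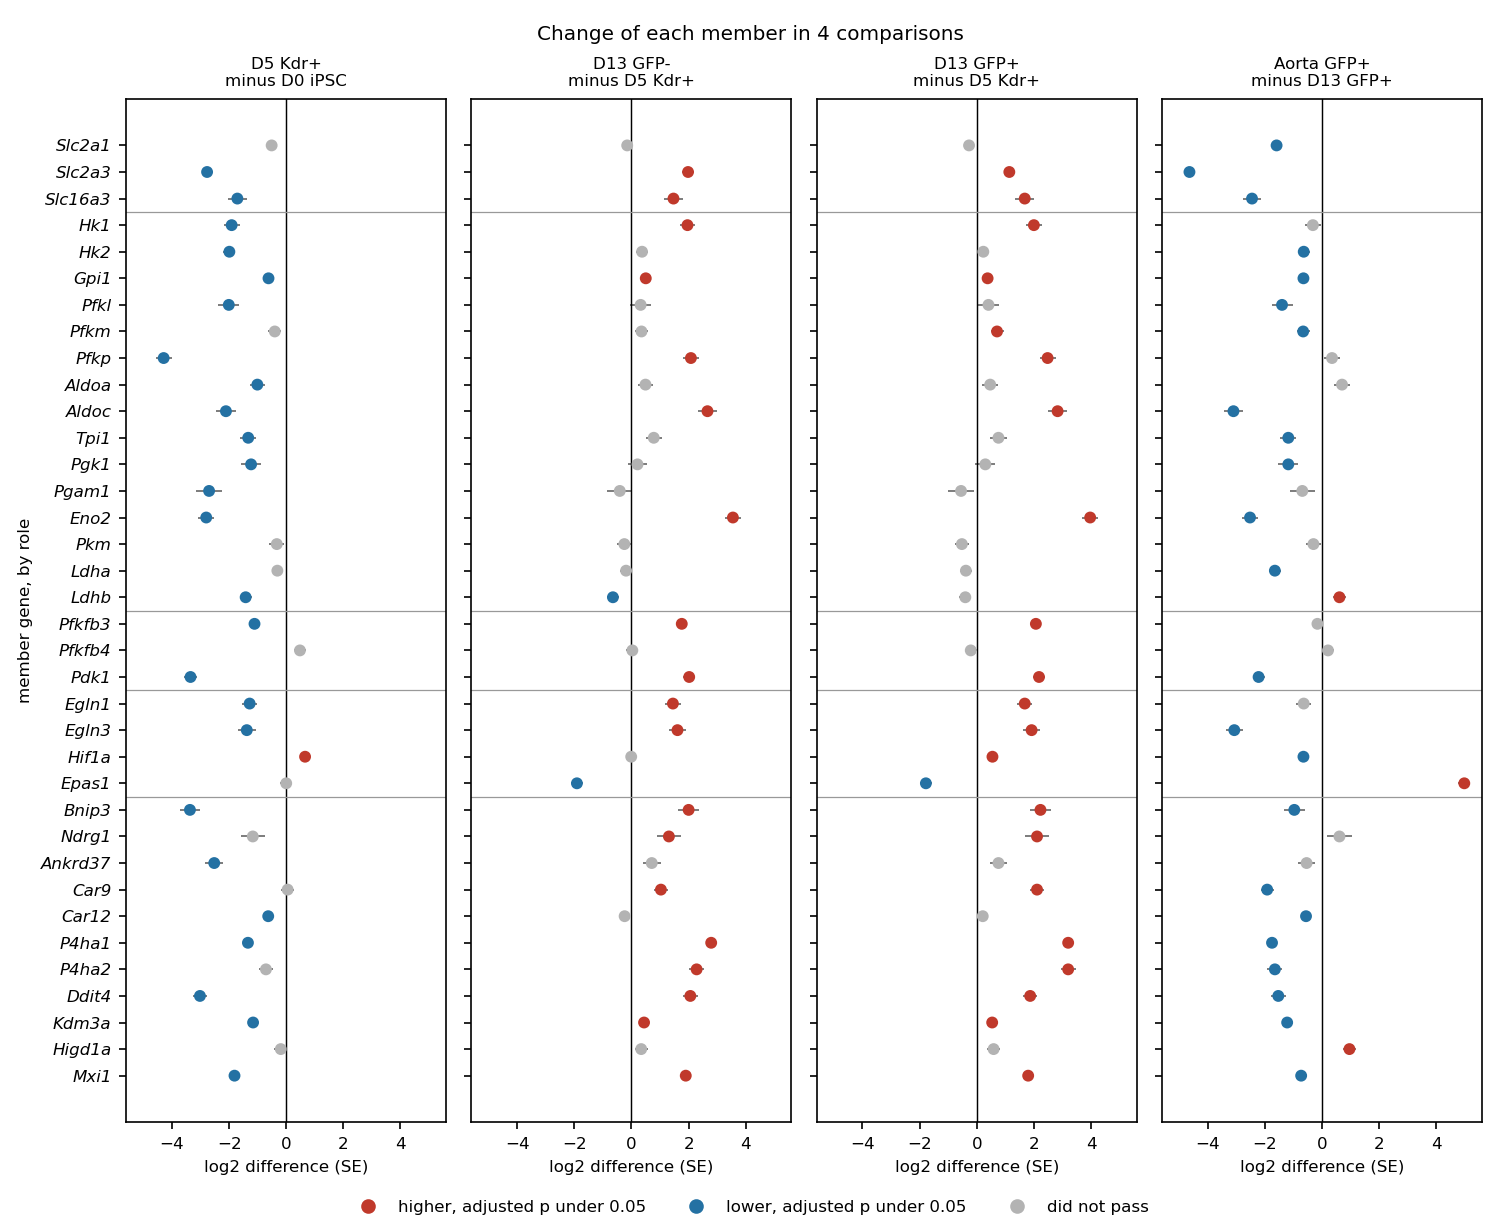
Log2 difference of each member in 4 comparisons, with 1 panel per comparison and the bar giving the SE. Members run down the page by role, red points passed the test as higher, blue points as lower and grey points did not pass. Most points are blue at day 5, red or grey in the 2 day 13 sorts, which share their day 5 samples, and blue in the aorta, where Epas1 lies at 4.98.

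Few members passed between the day 13 GFP+ and GFP- sorts, a share close to that of all probe sets. Of 36 members 1 passed as higher in GFP+ cells, 1 as lower and 34 did not pass, with a median log2 change of 0.14 against 0.01 for all probe sets. Over all probe sets 2.02% passed as higher and 2.52% as lower, and above the median level 3.55% and 4.28%. Car9 stood at 5.21, 5.64 and 5.71 in GFP+ cells and at 4.01, 4.18 and 5.14 in GFP- cells, a log2 change of 1.08 (SE 0.233, adjusted p = 0.0134). Slc2a3 stood at 9.81, 9.09 and 9.02 in GFP+ cells and at 10.42, 10.13 and 9.88 in GFP- cells, a change of -0.83 (SE 0.195, adjusted p = 0.0212). Both calls were lost in a fit of the 2 groups alone (adjusted p = 0.15 for Car9 and 0.162 for Slc2a3) and without GFP+ sample 5 (0.0553 and 0.0982) or 6 (0.0677 and 0.116), or GFP- sample 3 (0.0559 and 0.0824) or 5 (0.0682 and 0.0631).

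Samples of equal number deviated together across the 2 sorts, but numbers 5 and 6 also did so with each other (r = 0.345 and 0.278). A fit that pairs the samples by number gave 3 members as higher and 1 as lower. The additional members were P4ha2 (log2 change 0.92, SE 0.133, adjusted p = 0.00616) and Ndrg1 (0.8, SE 0.11, adjusted p = 0.00519). P4ha2 stood at 8.97, 7.99 and 8.08 in GFP+ cells and at 7.81, 7.02 and 7.46 in GFP- cells, and Ndrg1 at 9.49, 7.94 and 7.84 in GFP+ cells and at 8.79, 7.02 and 7.08 in GFP- cells, so GFP+ exceeded GFP- in 3 of 3 pairs of both. Under the pairing 1045 probe sets passed as higher and 1085 as lower, against 508 and 634 without it. The sorts did not overlap in 8 of 36 members, where 19.5% of all probe sets did not. Of these, 6 did not pass without the pairing: P4ha2 (adjusted p = 0.0598), Hif1a (log2 change 0.56, adjusted p = 0.0837), Car12 (0.45, 0.0562), P4ha1 (0.41, 0.184), Pfkfb3 (0.31, 0.28) and Epas1 (0.13, 0.904). For the enzymes the intervals limit what could have been seen. Without the pairing Ldha lay between -0.62 and 0.24, Pkm between -0.82 and 0.28, and Hk2 between -0.59 and 0.31. With it the intervals were -0.44 to 0.07 for Ldha, -0.52 to -0.02 for Pkm and -0.4 to 0.11 for Hk2, and none of the 3 passed (adjusted p = 0.392, 0.192 and 0.533). GFP+ lay below GFP- in 3 of 3 pairs of each, with differences of -0.34, -0.27 and -0.2 for Pkm, and also of Gpi1. Other enzymes leaned the other way, with GFP+ above GFP- in 3 of 3 pairs. They were Eno2 (log2 change 0.42), Pfkp (0.4), Pfkm (0.36) and Ldhb (0.26). With the pairing none of these passed (adjusted p = 0.0535, 0.0688, 0.0878 and 0.228), and the remaining enzymes were mixed between pairs.

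Beside these values, marker lists moved with the sort: 8 of 10 endoderm, 7 of 8 epithelial and 4 of 9 endothelial markers were lower in GFP+ cells. So were 5 of 12 proliferation, 3 of 9 early mesoderm, 2 of 10 pluripotency and 1 of 8 cardiac markers. Higher in GFP+ cells were 2 of 10 fibroblast and tendon and 2 of 10 contractile smooth muscle markers. The part of these lists in the result was not tested. The mean endoderm marker level was 4.1 to 4.29 in GFP+ cells and 5.7 to 5.96 in GFP- cells. Outside the members, the lactate and pyruvate transporter Slc16a1 (MCT1) was lower in GFP+ cells (log2 change -2.08) and the hypoxia-responsive genes Adm (1.1) and Plod2 (1.06) were higher. In all, 4 of 29 other hypoxia genes rose and 0 fell, 0 of 29 other glycolysis genes rose and 3 fell, 0 of 11 pyruvate genes rose and 2 fell, and of 13 HIF regulators 0 passed in either direction. Without adjustment, limma's p was under 0.05 for 1 HIF regulator as higher and 1 as lower, for 1 other glycolysis gene as higher and 5 as lower, for 0 pyruvate genes as higher and 4 as lower, for 6 other hypoxia genes as higher and 4 as lower, and for 6 members as higher and 1 as lower. The share of all probe sets at that unadjusted threshold is not given here. Without it, these counts show no lean of the members or lists.

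The day 13 samples also differed by their replicate number, with number 3 above numbers 5 and 6 in most members. Both samples numbered 3 lay above both other samples of their own sort in 30 of 36 members, where 25.3% of all probe sets did so, and below them in 2 members, against 19.2%. With a gap of at least 0.5 to the nearest other sample in both sorts there were 19 members above, against 2.09% of all probe sets, and 0 below, against 3.02%. With a gap of at least 1 there were 3 above, against 0.23%, and 0 below, against 0.595%. No test is given, since the samples of 1 number may come from 1 culture, and the pattern was known when the genes were chosen.

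The 3 members with the wide gap were Ndrg1, Pgam1 and Pfkl. Ndrg1 stood at 9.49 in GFP+ sample 3, against 7.94 and 7.84 in samples 5 and 6, and at 8.79 in GFP- sample 3, against 7.02 and 7.08. Pgam1 stood at 6.23 in GFP+ sample 3, against 4.56 and 4.03, and at 5.96 in GFP- sample 3, against 4.66 and 4.64. Pfkl stood at 7.94 in GFP+ sample 3, against 6.85 and 6.92, and at 8.26 in GFP- sample 3, against 6.45 and 6.74. Slc16a3 (smaller gap 0.95), Bnip3 (0.94) and Hk1 (0.94) followed.

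By role the pattern covered all 15 measured enzymes and all 3 transporters, but 2 of 3 flux regulators, 3 of 4 oxygen-sensing genes and 7 of 11 other targets. The 6 exceptions were Pfkfb3, Hif1a, Car9, Car12, P4ha1 and Kdm3a, whose samples numbered 3 did not lie above the others in both sorts. Hif1a and Car9 went the other way. Hif1a stood at 8.82 in GFP+ sample 3, against 8.92 and 9.04, and at 7.86 in GFP- sample 3, against 8.6 and 8.65. Car9 stood at 5.21 in GFP+ sample 3, against 5.64 and 5.71, and at 4.01 in GFP- sample 3, against 4.18 and 5.14.

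The other numbers showed no such pattern. Number 5 lay above the others in 0 members (11.3% of all probe sets) and below in 10 (13.4%), and number 6 above in 3 (9.51%) and below in 9 (12.6%). For either of these numbers a gap of at least 1 in both sorts occurred in 0 members and 0% of all probe sets. At the earlier stages number 3 did not stand high. Among the iPSC samples it was the highest in 9 members (33% of all probe sets) and the lowest in 20 (36.9%), while iPSC sample 5 was the highest in 24 (30.2%). At day 5 number 3 was the highest in 15 (35.7%) and the lowest in 15 (35.9%). Of the 29 other hypoxia-responsive genes, 22 were above in number 3, 4 of them by at least 1, and of the 29 other glycolysis genes 6.

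Other markers moved with the number. Of 10 fibroblast and tendon markers, 9 lay below the others in both samples numbered 3, and 4 of them by at least 1. Their mean level was 6.94 in GFP+ sample 3, against 8.36 and 8.62, and 5.56 in GFP- sample 3, against 7.38 and 7.76. Of 8 cardiac markers 3 lay below, with a mean of 5.19 in GFP+ sample 3, against 6 and 5.86, and 5.43 in GFP- sample 3, against 6.3 and 6.24. Of 10 contractile smooth muscle markers 6 lay below and 1 above, and of 12 proliferation markers 4 below and 0 above. Of 9 early mesoderm markers 5 lay above and 1 below, and of 8 epithelial markers 4 above and 0 below. Their part in the result was not tested.

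**Figure D5:**
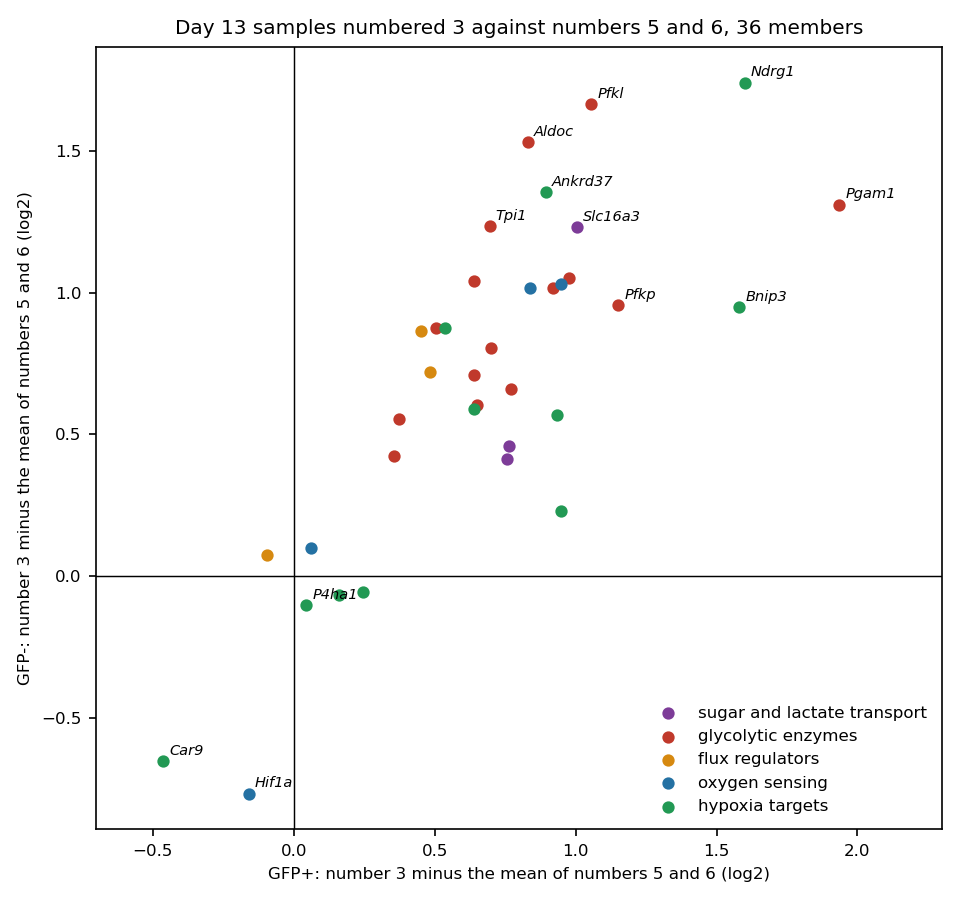
Each point is 1 of the 36 members. The horizontal axis gives, in GFP+ cells, the log2 level of sample 3 minus the mean of samples 5 and 6, and the vertical axis the same in GFP- cells, with colour by role. Most points lie above 0 on both axes, Pgam1 (1.94 and 1.31) and Ndrg1 (1.6 and 1.74) furthest out, while Hif1a and Car9 lie below 0 on both.

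Aortic GFP+ cells, the study's positive control for smooth muscle, were compared with day 13 GFP+ cells. Most glycolytic and hypoxia transcripts were lower in the aortic cells, and Epas1 was far higher. Of 36 members 23 passed as lower, 3 as higher and 10 did not pass, with a median log2 change of -0.71 against 0.07 for all probe sets. Over all probe sets 19.5% passed as lower and 17.7% as higher, and above the median level 35.3% and 19.2%, so the probe sets of that upper range also passed as lower more than as higher.

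All 3 transporters fell. Slc2a3 stood at 4.61, 4.92 and 4.47 in aortic cells and at 9.81, 9.09 and 9.02 in day 13 GFP+ cells, which is 25-fold lower (log2 change -4.64, SE 0.195, adjusted p = 4.44e-11). Slc16a3 stood at 6.05, 5.43 and 5.84 in aortic cells and at 8.89, 7.83 and 7.94 in day 13 GFP+ cells (-2.45, SE 0.327, adjusted p = 1.95e-05). Slc2a1 fell by 1.59 (adjusted p = 6.11e-06).

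Of 15 enzymes 9 fell and 1 rose. Aldoc stood at 4.71, 4.93 and 5.39 in aortic cells and at 8.66, 7.93 and 7.73 in day 13 GFP+ cells (-3.1, SE 0.337, adjusted p = 2.24e-06). Eno2 stood at 6.03, 5.93 and 5.53 in aortic cells and at 8.82, 8.02 and 8.22 in day 13 GFP+ cells (-2.52, SE 0.276, adjusted p = 2.41e-06). Ldha fell by 1.65, Pfkl by 1.4, Tpi1 and Pgk1 by 1.18 each, Pfkm by 0.66, Gpi1 by 0.65 and Hk2 by 0.64. Ldhb, the partner subunit of Ldha, rose by 0.61 (adjusted p = 0.0344), a call lost without any single aortic sample or without GFP+ sample 5 or 6 (adjusted p from 0.0562 to 0.118). Hk1 (-0.32), Pfkp (0.35), Aldoa (0.7), Pgam1 (-0.69) and Pkm (-0.3) did not pass. The smaller falls depended on the scaling of the arrays: after cyclic loess Gpi1 had -0.01, Hk2 -0.31, Pfkm -0.53 and Tpi1 -0.71, and none of these passed.

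Pdk1 fell by 2.22 (SE 0.212, adjusted p = 5.45e-07), and Pfkfb3 and Pfkfb4 did not pass (-0.16 and 0.21). Egln3 stood at 6.17, 5.27 and 5.93 in aortic cells and at 9.42, 8.7 and 8.46 in day 13 GFP+ cells (-3.07, SE 0.308, adjusted p = 9.24e-07), while Egln1 had -0.64 and did not pass. Epas1 stood at 9.58, 9.65 and 9.3 in aortic cells and at 4.57, 4.55 and 4.47 in day 13 GFP+ cells, the largest change of the members in any comparison at 4.98 (SE 0.211, 31.5-fold, adjusted p = 5.13e-11). Hif1a stood at 8.33, 8.15 and 8.33 in aortic cells and at 8.82, 8.92 and 9.04 in day 13 GFP+ cells (-0.65, adjusted p = 0.00599). After cyclic loess it had -0.23 and did not pass.

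Of the 11 other targets 8 fell, among them Car9 (-1.92), P4ha1 (-1.75), P4ha2 (-1.65), Ddit4 (-1.53), Kdm3a (-1.22), Bnip3 (-0.97), Mxi1 (-0.73) and Car12 (-0.56). Bnip3 was the one called member whose groups overlapped in the aortic comparison, with 6.16, 6.66 and 5.93 in aortic cells and 8.27, 6.58 and 6.8 in day 13 GFP+ cells, and its call was lost without GFP+ sample 3 (-0.44, adjusted p = 0.248) and without aortic sample 1 (adjusted p = 0.1) or 3 (0.154). Higd1a rose by 0.96 (adjusted p = 0.00373). Ndrg1 (0.61) and Ankrd37 (-0.54) did not pass. Without both day 13 samples numbered 3, 6 members passed as higher: Pfkp (0.73), Aldoa (0.87) and Ndrg1 (1.14) were added. The share of all probe sets that passed in that setting is not given here. The call for Pfkm was lost without GFP+ sample 3 (-0.44, adjusted p = 0.159) or aortic sample 2 (0.0878) or 3 (0.13). That for Pgk1 was lost without GFP+ sample 3 (adjusted p = 0.064) or aortic sample 3 (0.0839), and that for Hk2 without GFP+ sample 3 (0.127) or aortic sample 1 (0.0882).

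The aortic samples differed from the cultured cells in other markers too. Contractile smooth muscle markers were higher in 9 of 10, proliferation markers lower in 11 of 12, and markers of endothelium (6 of 9), leukocytes (6 of 7) and erythroid cells (2 of 7) were higher. The mean endothelial marker level was 5.62 to 5.94 in aortic cells and 4.28 to 4.4 in day 13 GFP+ cells, that of leukocyte markers 5.01 to 5.65 in aortic cells and 3.89 to 4.1 in day 13 GFP+ cells, and that of erythroid markers 2.9 to 3.27 in aortic cells and 2.34 to 2.54 in day 13 GFP+ cells. The leukocyte list also averaged 5.16 to 5.29 in iPSC, with Laptm5 and Cd68 highest. Its mean is therefore no measure of leukocytes across the groups. Laptm5 and Cd68 were lower in every aortic sample than in every iPSC sample, while Ptprc, Cd14 and Csf1r were higher. Fcer1g and Tyrobp overlapped between these groups. Ptprc stood at 3.71, 3.34 and 3.63 in aortic cells and at 1.93, 1.86 and 1.74 in day 13 GFP+ cells. Cd14 had 6.25, 7.44 and 5.49 in aortic cells and 2.6, 3.61 and 3.14 in day 13 GFP+ cells. The erythroid means lay below the sample medians, and 5 of the 7 markers did not pass. Single markers stood higher and varied between the aortic samples. Hbb-b1 had 5.16, 4.47 and 2.47 in aortic samples 1, 2 and 3, against 1.43, 1.53 and 1.04 in day 13 GFP+ cells. Alas2 had 3.9, 4.94 and 3.78, against 2.77, 3.03 and 2.63. The part of leukocytes and erythroid cells in the members' values was not tested. Epas1 is known for high expression in endothelial cells, and the part of such cells in its value was not tested. Origin in tissue or in culture and the kind of smooth muscle cell cannot be told apart in this design. Of the 29 other hypoxia genes 18 fell and 4 rose, with P4ha3 at -3.87 and Vegfa at -2.93. Of 29 other glycolysis genes 6 fell and 5 rose (Pgm1 -2.1), of 13 HIF regulators 4 fell and 1 rose (Hif3a -2.91), and of 11 pyruvate genes 2 fell and 4 rose (Pdk2 1.24).

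The last comparison set day 13 GFP+ cells against day 0 iPSC, across the whole differentiation. It shares samples with the comparisons above. Of 36 members 17 passed as lower, 6 as higher and 13 did not pass, with a median log2 change of -0.48 against -0.02, and over all probe sets 19.8% passed as lower and 17.7% as higher (29.2% and 30.1% above the median level). Beside these values, 12 of 12 proliferation, 10 of 10 pluripotency and 5 of 8 epithelial markers were lower in the day 13 GFP+ cells, and 10 of 10 contractile smooth muscle and 9 of 10 fibroblast and tendon markers were higher. Their part in the result was not tested.

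The 6 that rose were P4ha2 (2.49, SE 0.259), Car9 (2.16, SE 0.233), P4ha1 (1.86, SE 0.153), Hif1a (1.21, SE 0.169), Eno2 (1.17, SE 0.276) and Pfkfb3 (0.96, SE 0.135). Car9 stood at 5.21, 5.64 and 5.71 in day 13 GFP+ cells and at 3.47, 3.16 and 3.46 in iPSC. The strongest falls were those of Pgam1 (-3.25, SE 0.445, adjusted p = 1.95e-05), Ldhb (-1.82), Pfkp (-1.81), Epas1 (-1.78), Hk2 (-1.76) and Ankrd37 (-1.76). Pgam1 stood at 6.23, 4.56 and 4.03 in day 13 GFP+ cells and at 8.16, 8.19 and 8.22 in iPSC. Slc2a3 fell by 1.63, Pfkl by 1.6, Pdk1 by 1.17, Ddit4 by 1.15, Bnip3 by 1.14, Pgk1 by 0.93, Pkm by 0.86, Slc2a1 by 0.78, Ldha by 0.69, Kdm3a by 0.62 and Car12 by 0.42. Without GFP+ sample 5 the calls for Pgk1, Pkm, Ldha, Bnip3 and Car12 were lost (adjusted p from 0.0619 to 0.192), and without GFP+ sample 6 those for Pgk1, Pkm, Ldha and Bnip3. The call for Pgk1 was also lost without any single iPSC sample (adjusted p from 0.0706 to 0.114), that for Bnip3 without iPSC sample 5 (0.0624) and that for Car12 without iPSC sample 3 (0.0691).

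Members near their iPSC level at day 13 included Mxi1 (-0.01, interval -0.41 to 0.39), Slc16a3 (-0.02, interval -0.72 to 0.68) and Hk1 (0.08, interval -0.5 to 0.67), and these intervals still allow changes of more than 1.3-fold. Of the 29 other hypoxia genes 14 rose and 5 fell (P4ha3 4, Tfrc -3.54, Loxl2 3.21), of 29 other glycolysis genes 2 rose and 12 fell (Gpd2 -2.15), of 11 pyruvate genes 1 rose and 4 fell (Pdha1 -1.87), and of 13 HIF regulators 4 rose and 1 fell (Hif3a 1.45).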

How the data were processed

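The authors deposited 1 table of log2 expression values, 1 per probe set and sample. The submitters' processing notes name RMA, affy 1.36.1 and R 2.15.1. RMA corrects background, normalizes by quantiles and summarizes probes. That the scale is log2 was taken from the range of the values. A genome build was not given in the sources used here. Probe sets are named by Entrez Gene ID, and 23740 of 25206 received a symbol, 555 of them through the mouse RefSeq table alone. No filter was applied. Equal values occurred in 25.6% of probe sets.

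A single linear model with 5 group means was fitted over the 15 samples (limma 3.58.1, R 4.3.3, 10 residual and 5.09 prior degrees of freedom). Benjamini-Hochberg adjustment ran over 25206 probe sets in each of 6 comparisons, with a threshold of 0.05. The fit was also run on simulated data with independent noise in each sample. These data lack the deviation that day 13 samples of equal number share, so they do not cover its effect on the calls. The SE is that of the moderated log2 difference, and intervals are 95%. Precision is limited by the number of arrays, 3 in a group. Scan dates were not in the sources used here.

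The members, lists and tests were chosen with earlier results of these data known. Every measured member is named. Up to 6 members with the largest change per comparison, past the threshold and without overlap between groups, have full statistics, and up to 3 genes were named from other lists. Samples of equal number deviated together between the day 13 sorts (r = 0.597, 0.403 and 0.397 across genes), which is where the pairing comes from. Unlike numbers also did so, GFP+ 5 with GFP- 6 at r = 0.345 and GFP+ 6 with GFP- 5 at 0.278. These values set number 3 apart and do not settle that 5 pairs with 5 and 6 with 6. Alternatives were a fit of 2 groups, a variance trend, median centring, cyclic loess, probe sets above the median level, a replicate block, leaving out each sample and, added after the data were seen, both day 13 samples of 1 number. Centring moved a sample median by at most 0.107 and cyclic loess by 0.151. Promoter windows came from RefSeq.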

Additional observations from a re-analysis of the deposited data

Results flagged for a closer look

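Slc16a1 (MCT1), a lactate and pyruvate transporter outside the 36 members, moved in opposite directions from day 5 in the 2 sorts, and the difference between the sorts passed the test. It stood at 7.47, 7.66 and 7.54 in day 13 GFP+ cells and at 9.45, 9.83 and 9.62 in GFP- cells, a log2 difference of -2.08. Against day 5 (9.11, 8.49 and 8.69) the change was -1.21 in GFP+ cells (adjusted p = 2.33e-05) and 0.87 in GFP- cells (adjusted p = 0.000747). Both share their day 5 samples.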

How the results depend on the processing

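Calls held under every alternative for 25 of 26 called members in day 5 against day 0, 17 of 21 in GFP- and 19 of 22 in GFP+ against day 5, 0 of 2 between the sorts, 18 of 26 in the aorta and 18 of 23 in GFP+ against day 0, and 0 called members changed direction. In the fit of 2 groups alone, the members called were 2 higher at day 5, 2 lower in GFP+ against day 5, and 0 higher and 0 lower between the sorts, where 193 and 266 probe sets were called. After cyclic loess 1 member was lower in GFP- against day 5 and 3 were higher between the sorts. With a replicate block 2 members were higher at day 5, and between the sorts 3 members and 1045 probe sets were higher and 1085 probe sets lower. In the comparisons with another stage the correlations of equal numbers ran from -0.072 to 0.0679, and those samples share only a number. Above the median level 2545 probe sets were higher in the aorta. Leaving out 1 sample at a time gave 1 to 2 members lower in GFP- against day 5, 1 to 5 lower in GFP+ against day 5, 0 to 2 higher and 0 to 1 lower between the sorts (307 to 537 and 346 to 584 probe sets), and 3 to 6 higher in the aorta. Without both samples numbered 3, members lower were 5 in each sort against day 5, 2 were higher between the sorts and 6 in the aorta. The shares of all probe sets beside these counts are not given here. Without both numbered 5, 1 was lower in GFP-, and between the sorts 0 members were higher, 0 lower, with 170 and 264 probe sets. Without both numbered 6, 1 was lower in GFP-, and between the sorts 0 were lower, with 226 and 282 probe sets. The number 3 pattern covered 19 members with a gap of 0.5. The cause of these shifts was not tested.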
